A study of Mus musculus with 768 samples.

Results

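Cycling and non-cycling cells of mouse cochlear organoids on culture Day 7 were compared within each of 5 cultures. The cells were chosen by their reads of 6 genes of the division machinery: Mki67, Top2a, Cdk1, Birc5, Ccnb2 and Tpx2. A cell was put on the cycling side when at least 3 of these genes had a read, and on the non-cycling side when 0 or 1 had. The 20 cells with 2 of the genes were left out of the comparison. Of the Day 7 cells, 93.8% were retained, each with at least 50000 reads on mouse genes, at least 1500 genes and at most 20% mitochondrial reads. The cycling side held 28, 17, 62, 60 and 20 cells of cultures 1 to 5, which is 62.1% of the retained Day 7 cells and 24.3% of the cells of the whole series. The non-cycling side held 94 cells (31.2% and 12.2%), 8, 16, 8, 15 and 47 by culture.

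The organoids were grown from the greater epithelial ridge (GER), an epithelium that lies medial to the developing hair cells. The cells were enriched by flow cytometry from P2 mice of the strain Fgfr3-CreERT2/Ai14-tdTomato/Sox2-GFP. The DMEM/F-12 medium held N-2, B-27, ampicillin, EGF, FGF2, IGF1, CHIR99021, valproic acid, 2-phospho-L-ascorbic acid and the TGFβ receptor inhibitor 616452. CHIR99021 inhibits GSK3 and so activates Wnt signalling, and valproic acid inhibits histone deacetylases. Both sides of every culture, and the 3 Day 3 cultures set beside them, shared this strain, age and medium, so no comparison here is with untreated cells or with tissue. Organoids were dissociated with trypsin and single cells were picked by hand for SmartSeq2, which amplifies whole cDNAs and does not tag molecules. The labels give each cell a day and a replicate number, taken here as the culture, and do not say whether replicates were separate animals. The p-values therefore measure only how the difference between the sides varied among these cultures, and that spread may be technical.

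In the neonatal cochlea the hair cells and most supporting cells have left the cell cycle, and the GER is a transient epithelium that secretes much of the tectorial membrane. Dividing cells copy their DNA in S phase with help from replication enzymes and newly made histones, and separate the copies in mitosis with kinesins, cyclin B and the chromosomal passenger complex. Many mitotic genes are repressed outside division by the DREAM complex, which binds promoter letters called the CHR.

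The cycling share differed widely between cultures. Of the retained cells, 28 of 39 in culture 1 were cycling (71.8%, exact Clopper-Pearson 95% interval 55.1 to 85). In culture 2 the number was 17 of 37 (45.9%, 29.5 to 63.1), and in culture 3 it was 62 of 72 (86.1%, 75.9 to 93.1). Culture 4 had 60 of 78 (76.9%, 66 to 85.7) and culture 5 had 20 of 75 (26.7%, 17.1 to 38.1). Culture 3 was highest and culture 5 lowest, and culture 5 was the only Day 7 culture in the second of the 2 deposited files. Its share and that file cannot be told apart. These intervals cover counting error only. Culture 1 moved most with the way cells were assigned: its share was 53.8% after each cell was thinned to 200000 reads, and 46.2% when a gene needed at least 5 reads.

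**Figure D1:**
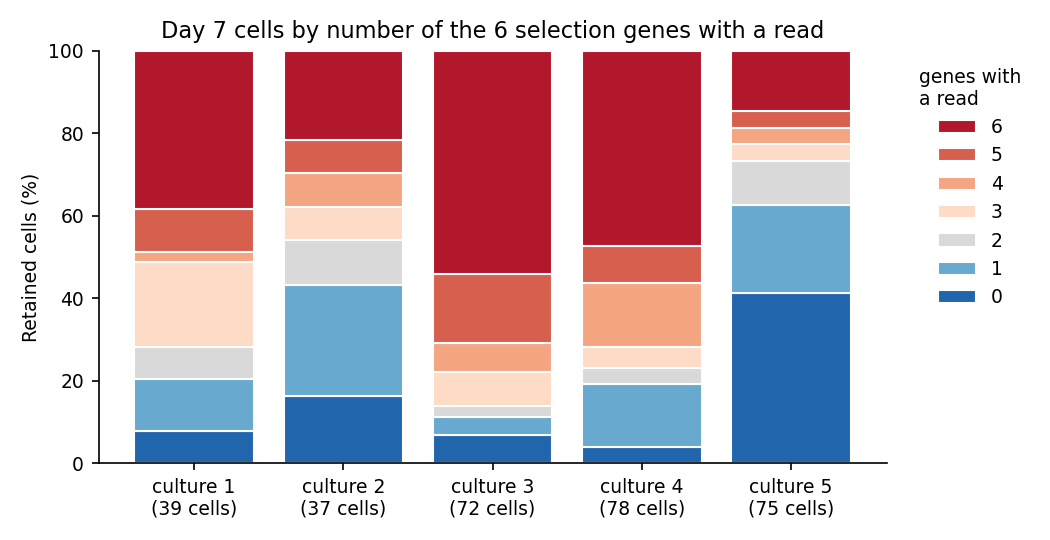
Percent of retained Day 7 cells in each culture by how many of the 6 selection genes had a read, from 0 to 6. Cells with 6 genes were the most common class over all cultures (36.5%), and in culture 5 cells with 0 genes were the most common (31 of 75).

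The sides were far apart in the genes that defined them, which is a description of the choice and not a result. Mki67, a chromosome surface protein of dividing cells, had a read in 91.98% of cycling and 1.06% of non-cycling cells. Top2a, which untangles DNA, had a read in 91.4% and 8.51%, and the mitotic kinase gene Cdk1 in 95.2% and 25.5%. Birc5, a subunit of the chromosomal passenger complex, was read in 87.7% and 4.26%, and the cyclin gene Ccnb2 in 79.1% and 9.57%. Tpx2, a spindle assembly factor, was read in 74.9% of cycling cells and in 0 of 94 non-cycling cells (exact Clopper-Pearson 95% interval up to 3.85%). At the threshold, the 24 cells with 3 genes had a median of 194.5 reads on the 6 genes together, and the 20 cells with 2 genes had 76. The median was 1058 reads over all cycling cells and 0 over the non-cycling cells.

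Other division genes gave a similar division of the cells, although they are switched on together with the 6 and are no independent check. Of 6 mitotic genes that the choice did not use (Nusap1, Kif11, Cenpf, Aurkb, Ccna2 and Bub1), 3 or more had a read in 83.96% of cycling cells and 1.06% of non-cycling cells. At the threshold this was so for 7 of 24 cells with 3 selection genes (29.2%) and 2 of 20 with 2 (10.0%). The non-cycling side was not free of cells with S phase transcripts: 22 of 94 (23.4%) had a read in 3 or more of 6 S phase markers, against 85.6% of cycling cells. The name non-cycling therefore refers to the 6 genes alone.

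Both sides were epithelial by their markers. The adhesion genes Epcam or Cdh1 had a read in every cycling cell and in 93 of 94 non-cycling cells. Reads of the Sox2-GFP reporter sequence were present in 88.8% of cycling and 89.4% of non-cycling cells, and reads of tdTomato in 14.4% and 10.6%. Of the hair cell genes Atoh1, Pou4f3, Gfi1, Myo7a and Pvalb, 2 or more were read in 1 cycling and 0 of 94 non-cycling cells, while 5 of 18 genes of a wider hair cell list (Myo6, Pcp4, Rasd2, Espn and Cib2) had enough reads to be tested. The 8 glial markers summed to 80.7 to 122.2 CPM of the library total in cycling and 77.2 to 143.4 in non-cycling sums, and Foxd3 and Cdh19 had 10 reads or fewer each. The neuron list summed to at most 29.6 CPM on either side, the melanocyte list to at most 11.5, the endothelium list to at most 7.00, the macrophage list to at most 5.87 and the red blood cell list to at most 1.25. No gene of the endothelium, melanocyte and red blood cell lists had enough reads to be tested.

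More genes were detected in cycling cells, a difference that the choice of cells itself favours. Cells were assigned by how many selection genes had a read, so better detection makes the cycling side more likely. The number of genes per cell also includes the selection genes and the other cell cycle genes. How much of the difference comes from the choice was not tested. After thinning every cell to 200000 reads, the median number of genes per cell was 6698, 6192, 6455, 6272 and 5645 in the cycling cells of cultures 1 to 5. In the non-cycling cells it was 5910, 5183, 5496, 5471 and 5005. The cycling side was higher in 5 of 5 cultures, by 839.5 ± 147.4 genes (mean ± SD, n = 5; exact two-sided sign-flip permutation p = 0.063, the smallest that 5 pairs allow). Cycling cells also had more reads as sequenced, with 934610 ± 93040 against 775890 ± 80740 per cell (mean ± SD of 5 culture medians). The percent of mitochondrial reads was lower in cycling cells in 5 of 5 cultures (4.51 ± 0.949 against 4.98 ± 1.08), as was the percent of reads on ribosomal protein genes (2.83 ± 0.160 against 3.17 ± 0.307). These 3 measures had the same exact permutation p of 0.063, and it stayed at 0.063 after adjustment over the 4 measures, so none could pass a threshold of 0.05 in this design.

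Reads were then summed per side and culture, and each gene was tested with the cultures as pairs by edgeR's quasi-likelihood test, called at a Benjamini-Hochberg adjusted p under 0.05. The 10 sums held 15973805 to 50272287 reads on the cycling side and 4946395 to 44243353 on the non-cycling side, and the smallest came from 8 cells. Of 12782 genes tested, 1.89% were called, 1.42% as higher in cycling cells and 0.477% (61 genes) as lower. The CPM of the 5 cycling and the 5 non-cycling sums did not overlap for 5.72% of the genes, and 2270 genes (17.8%) differed in the same direction in 5 of 5 cultures. The median log2 difference over all genes tested was 0.15. In what follows the CPM of a gene is a count scaled to the library total times its TMM scaling factor (0.926 to 1.09), not per length. Sums of marker lists given as CPM of the library total do not use this factor. Differences are fitted log2 values, cycling minus non-cycling, with their standard errors.

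The cell cycle lists filled most of the higher side. Of the tested genes of G2 and mitosis, 81 (44.5%) were called higher and 0 lower, with a median log2 difference of 4.29. Of those of S phase and replication, 39 (25%) were higher and 0 lower (median 2.00), and of 21 tested replication histones 4 were higher and 0 lower (median 3.58). Because these genes are switched on with the genes that chose the cells, their counts describe the choice and no support is taken from them.

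Single genes show how graded this was. Bub1, a kinase of the spindle checkpoint, stood at 36.2, 72.6, 102.4, 90.6 and 74.9 CPM in the cycling cells of cultures 1 to 5 and at 0, 0.0887, 0, 0.0881 and 0 in the non-cycling cells. Hmgb2, a chromatin protein, stood at 328.3, 957, 766.1, 677.3 and 908 CPM against 75.9, 223.05, 202.9, 111.8 and 195.9. The 2 sides did not overlap for either gene, but Hmgb2 was read in 96.8% of non-cycling cells and Bub1 in 2.13%. Rrm2, a subunit of the enzyme that makes deoxynucleotides, had 266.4 ± 45.9 CPM in cycling and 19.3 ± 10.3 in non-cycling cells (mean ± SD, n = 5). The histone variant gene H2afz had 1737 ± 307.5 against 781 ± 190.6, and the replication histone Hist2h3c2 had 37.4 ± 21.4 against 1.61 ± 2.17. Cycling cells of culture 1 were the lowest of the 5 for Hmgb2 and Bub1, and their reads on all cell cycle list genes made up 2.68% of the total against 4.49 to 4.77% in the other cultures.

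The promoters of 2 of the selection genes are shown because they hold both the CCAAT and the CHR letters. Each is 250 bases before to 50 after the RefSeq start, on the gene's strand, 5′ to 3′, build GRCm38.p6, with CCAAT (or ATTGG, its reverse complement) and the CHR letters TTTGAA in capitals. Ccnb2 lies on the minus strand at chr9:70421505-70421804 and Cdk1 on the minus strand at chr10:69352863-69353162.
Ccnb2: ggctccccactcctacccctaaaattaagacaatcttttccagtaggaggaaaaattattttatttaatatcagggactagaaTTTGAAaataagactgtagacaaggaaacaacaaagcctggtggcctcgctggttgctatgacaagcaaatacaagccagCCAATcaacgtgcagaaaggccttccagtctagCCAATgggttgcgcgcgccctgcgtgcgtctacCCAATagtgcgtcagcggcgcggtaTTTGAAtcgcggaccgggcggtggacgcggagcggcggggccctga
Cdk1: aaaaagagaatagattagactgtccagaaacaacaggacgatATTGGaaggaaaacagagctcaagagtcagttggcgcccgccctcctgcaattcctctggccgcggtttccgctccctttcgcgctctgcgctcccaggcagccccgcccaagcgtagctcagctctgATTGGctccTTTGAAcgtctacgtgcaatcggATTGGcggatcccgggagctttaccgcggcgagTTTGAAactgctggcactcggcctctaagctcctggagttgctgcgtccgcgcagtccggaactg
Both windows hold 3 CCAAT letters and 2 TTTGAA letters. A RefSeq promoter was found for 65 of the 81 called mitotic genes, and 38 of them (58.5%) hold TTTGAA on either strand, 43 (66.2%) hold CCAAT and 29 (44.6%) hold both. Among 9435 promoters of all genes tested, the shares were 13.9%, 43.7% and 5.82%. Of 28 called S phase genes with a promoter, 7 (25%) hold the E2F letters TTTCCCGC or TTTGGCGC, against 3.55% of all. A match of letters is a description and does not show that a factor binds.

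Outside the cell cycle lists the difference between the sides was much narrower. Of 12418 genes in no such list, 7149 had a difference above 0 and 5269 below. Of the 12418, 0.918% were called, 53 higher in cycling cells (0.427%) and 61 lower (0.491%). The split moved with the scaling: with library totals only in place of TMM it was 69 higher and 49 lower, and with no replicate block 72 and 45. All of these kept their direction when any of the 5 cultures was left out, but far fewer stayed called: 47 without culture 1, 15 without culture 2, 42 without culture 3, 11 without culture 4 and 10 without culture 5. The last of these is also the fit within the first deposited file. Called in the full comparison and without each culture in turn were 7 genes: Tuba1b, Tuba1a and the predicted gene Gm10184 higher, and Clu, Dkk3, Fstl1 and Sparcl1 lower. With no replicate block these 4 lower genes lost their calls. Clu and Dkk3 also lost theirs with cells of 5 or 6 selection genes against 0, and Dkk3, Fstl1, Sparcl1 and Tuba1a in the 3 cultures with 10 or more cells on each side. With cells of 5 or 6 selection genes set against cells with 0, 33 of these genes (28.9%) were called, and with the 6 other mitotic genes as selection genes 80 (70.2%) were. In the 3 cultures with 10 or more cells on each side (cultures 2, 4 and 5), 4 were called. Depth, genes per cell and the mitochondrial and ribosomal shares moved with the side, as given above. Their part in these calls was not tested beyond the fits that follow. In sums of thinned cells, with the sides assigned anew, 95 of these genes (83.3%) were called again. With cells of at most 10% mitochondrial reads 95 (83.3%) were also called.

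**Figure D2:**
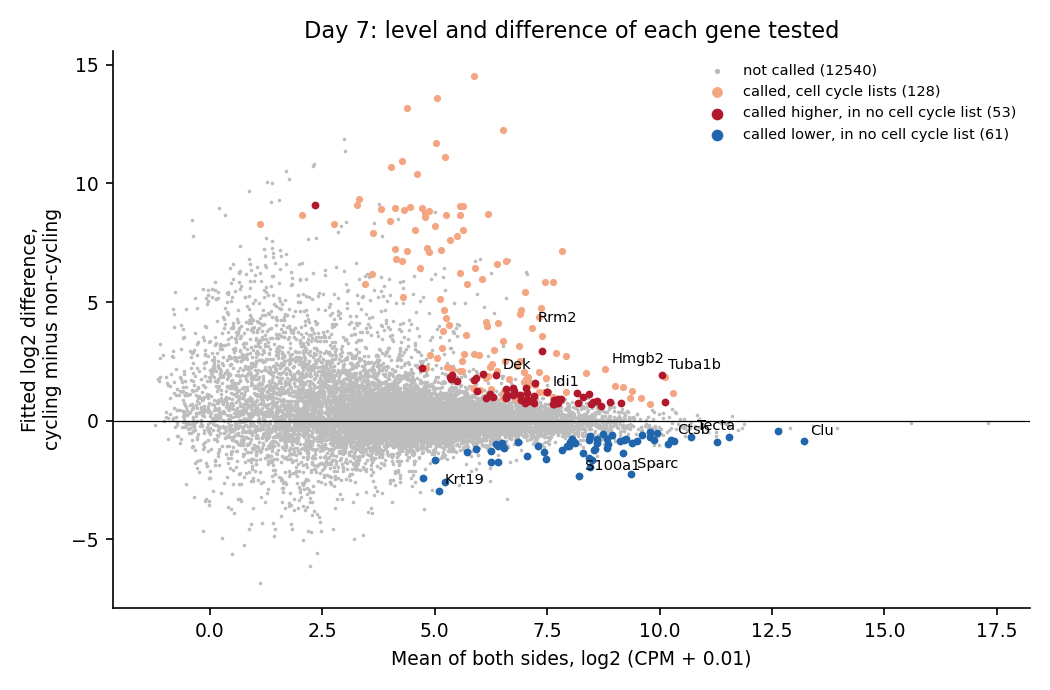
Fitted log2 difference of each gene tested (cycling minus non-cycling) against its mean level as log2 of CPM + 0.01, 1 point a gene. Called genes of the cell cycle lists reach differences above 10, while outside them Lrr1 lies at 9.10, Tuba1b at 1.93 and Krt19 at -2.95.

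The 10 named higher genes outside the lists had at least 20 CPM and a read in at least 20% of cells on the cycling side, and several of them have known roles in division although no list held them. Lrr1 had a larger difference at a lower level (9.10 ± 1.37), with 10.1 ± 5.15 CPM in cycling cells and reads in only 1 of the 5 non-cycling sums. The predicted gene Gm10184 also had a larger difference (2.94 ± 0.28), and the 10 hold no predicted gene. Tuba1b, an alpha-tubulin, had 1162, 1792, 2068, 1776 and 1593 CPM in cycling cells of cultures 1 to 5, against 453.96, 403.99, 476.5, 446.3 and 394.1 in non-cycling cells. The sides did not overlap, and the difference was 1.93 ± 0.13 (edgeR's quasi-likelihood test, adjusted p = 0.00145). Its near-identical paralog Tuba1a was 1413 ± 264.2 against 824 ± 148.8 CPM (0.78 ± 0.08, adjusted p = 0.00538). Reads of the 2 genes may have been split between them, so their separate values are uncertain.

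Dek, a chromatin protein, had 99.9, 120.05, 115.6, 141.3 and 168.2 CPM in cycling cells and 16.4, 51.7, 22.3, 47.2 and 44.4 in non-cycling cells. No cycling sum fell into the non-cycling range (1.93 ± 0.25, adjusted p = 0.0137). Haus3, a subunit of the augmin complex that nucleates spindle microtubules, had 42.98 ± 12.5 against 9.30 ± 3.36 CPM (2.23 ± 0.40, adjusted p = 0.0379). Vrk1, a chromatin kinase, was higher by 1.98 ± 0.38, and Cep57, a centrosome protein, by 1.85 ± 0.34. Gpsm2, which orients the spindle, was higher by 1.71 ± 0.25, and Cdca4 by 1.79 ± 0.23. Lsm3, a core component of splicing and mRNA decay complexes, was higher by 1.94 ± 0.36, Tcof1, which acts in ribosomal RNA synthesis, by 1.77 ± 0.25, and the histone co-chaperone gene Dnajc9 by 1.57 ± 0.19. Without culture 4 or without culture 5, only Tuba1b of these 10 stayed called.

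Cholesterol synthesis rose in part. All 21 genes of the list had a log2 difference above 0, as had 7149 of all 12418 genes outside the cell cycle lists. The medians were 0.92 and 0.13. Of the list, 4 genes (19%) were called higher, beside 0.427% of all genes outside the cell cycle lists, and 0 lower. The promoter of Idi1, on the plus strand at chr13:8885356-8885655 (GRCm38.p6), is shown because every promoter found for the list holds CCAAT on one strand or the other. Its capitals mark ATTGG, which is CCAAT read on the other strand.
Idi1: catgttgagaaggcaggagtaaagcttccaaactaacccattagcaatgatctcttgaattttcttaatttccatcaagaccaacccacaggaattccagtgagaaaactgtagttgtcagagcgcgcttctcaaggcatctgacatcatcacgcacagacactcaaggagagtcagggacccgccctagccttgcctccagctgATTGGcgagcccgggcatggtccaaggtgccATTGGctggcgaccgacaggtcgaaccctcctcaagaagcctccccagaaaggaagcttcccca
Of 15 list promoters found, 15 hold CCAAT on either strand (100%, against 43.7% of all), and 2 (13.3%) hold the sterol element letters TCACCCCA, against 1.71% of all.

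Idi1, which isomerises the isoprene unit, had 184.8, 379.99, 266.3, 222.8 and 208.4 CPM in cycling cells and 110.6, 149.6, 90.6, 79.97 and 108.1 in non-cycling cells. The sides did not overlap and culture 2 was highest on both (1.21 ± 0.16, adjusted p = 0.0165). Fdps, which builds farnesyl pyrophosphate, had 385.6, 705.3, 476.95, 344.9 and 463.2 CPM against 243.3, 303.8, 155.1 and 221.9 in cultures 1, 2, 4 and 5, with culture 3 between cultures 4 and 5 (1.14 ± 0.14, adjusted p = 0.0137). Msmo1, a sterol demethylase, had 276.7, 721.9, 354.7, 275.4 and 302.2 CPM against 135.1, 405.1, 111.1, 133.5 and 129.6 (1.16 ± 0.14, adjusted p = 0.0128). Its sides overlapped, because non-cycling cells of culture 2 stood above the cycling cells of the 4 other cultures. Sqle, the squalene epoxidase, was higher by 0.91 ± 0.16 (adjusted p = 0.0372). None of the 4 calls held without culture 4 or without culture 5, nor when cells with 5 or 6 selection genes were set against cells with 0.

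Building-block synthesis and ribosome assembly showed the same direction with few calls. Of 18 genes of nucleotide and folate-dependent synthesis, 2 purine synthesis genes (11.1%) were called higher and 0 lower (median 0.75). Of all genes outside the cell cycle lists, 0.427% were called higher. Gart was at 145.4 ± 22.5 against 68.8 ± 17.2 CPM (1.10 ± 0.20, adjusted p = 0.0363), and Paics at 438.8 ± 72.7 against 267.9 ± 44.5 (0.71 ± 0.14, adjusted p = 0.0463). Shmt2, the mitochondrial serine hydroxymethyltransferase, was the only call of 15 genes of the integrated stress response list (6.67%). It had 118.5, 119.6, 134.9, 183.3 and 211.8 CPM against 35.2, 56.8, 39.1, 92.04 and 82.9 (1.39 ± 0.18, adjusted p = 0.0156). Its sides did not overlap. All 18 genes of ribosome biogenesis were above 0 (median 0.52), as were 7149 of the 12418 genes outside the cell cycle lists. Of the 18, 1 (5.56%) was called, the nucleolar gene Nolc1 (1.05 ± 0.18, adjusted p = 0.0318). Without culture 4 or culture 5 none of these 4 genes was called.

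Genes of splicing and of the nuclear pore were put into lists after their values had been seen, so their counts are descriptions. Of 69 splicing genes, 66 had a difference above 0 (median 0.58), beside 7149 of the 12418 genes outside the cell cycle lists. Of the 69, 8 (11.6%) were called higher, beside 0.427% of those outside genes, and 0 lower. The 8 were Lsm3, Hnrnpf, Hnrnpab, Srsf1, Alyref, Snrpd1, Eftud2 and Ddx39. Snrpd1, a core protein of the spliceosomal snRNPs, had 100.8, 106.7, 116.98, 103.8 and 90.7 CPM in cycling cells and 57.5, 51.6, 53.5, 57.7 and 41.1 in non-cycling cells. Every cycling sum lay above every non-cycling sum (1.00 ± 0.16, adjusted p = 0.0309). Hnrnpab was at 461.4 ± 76.1 against 268.4 ± 44.2 CPM (0.78 ± 0.10, adjusted p = 0.0128), and the splicing factor gene Srsf1 at 171.5 ± 34.8 against 91.7 ± 23.7 (0.92 ± 0.13, adjusted p = 0.0201). Of 29 genes of the nuclear pore and nuclear import, 26 were above 0 (median 0.88) and 4 (13.8%) were called higher: Nup62, Nup88, Nutf2 and Ipo5. Nup62, of the central channel, was at 186.8 ± 41.1 against 72.7 ± 23.7 CPM (1.39 ± 0.24, adjusted p = 0.0340). Without culture 4 none of these 12 genes was called, and without culture 5 only Ddx39 was.

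**Figure D3:**
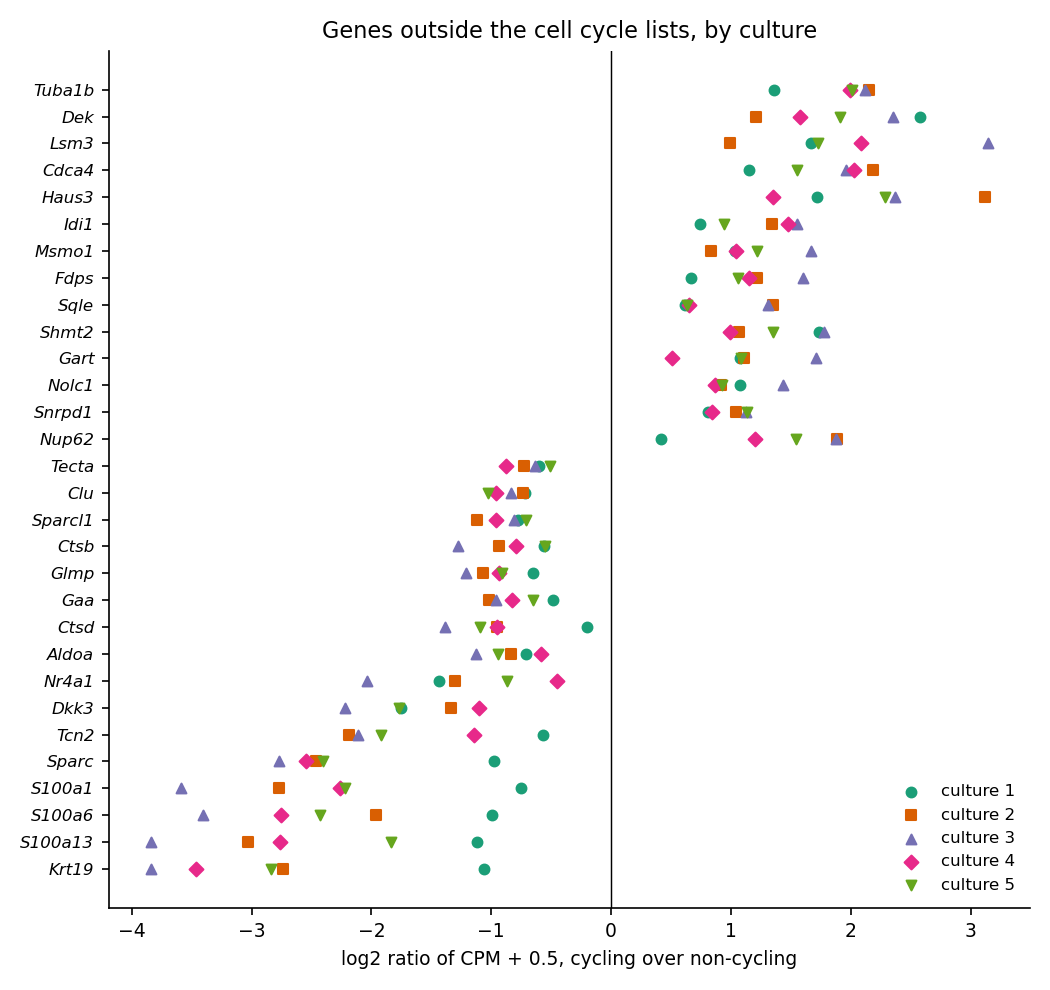
Log2 ratio of CPM + 0.5, cycling over non-cycling, for 30 genes outside the cell cycle lists, with 1 symbol a culture. Every symbol lies on its gene's side of 0, and for Sparc, Krt19 and the 3 S100 genes culture 1 (circles) lies closest to 0.

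Among the 10 named lower genes the largest differences were those of Krt19, S100a13, S100a6, S100a1 and Sparc. Sparc, a collagen-binding matrix protein, had 348.8, 186.98, 205.7, 138.97 and 283.5 CPM in cycling cells and 686.1, 1030.5, 1404, 814 and 1503 in non-cycling cells. The sides did not overlap, and the difference was smallest in culture 1 (-2.25 ± 0.26, edgeR's quasi-likelihood test, adjusted p = 0.0113). The call was lost without culture 5 and held without each of the others. Dkk3, a secreted Dickkopf family protein, had 276.3, 285.7, 62.4, 121.1 and 149.2 CPM against 930.0, 719.9, 291.7, 260.7 and 509.97 (-1.64 ± 0.17, adjusted p = 0.00786). Its ranges overlapped across cultures while every culture was lower in cycling cells.

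The S100 genes encode small calcium-binding proteins, and S100a1 marks supporting cells of the cochlea. S100a1 had 98.4, 45.6, 70.1, 80.8 and 168.04 CPM in cycling cells and 165.9, 313.9, 849, 389.6 and 784 in non-cycling cells (-2.34 ± 0.37, adjusted p = 0.0285). The ranges met only through culture 5 on the cycling side and culture 1 on the non-cycling side. S100a13 was at 9.95 ± 5.38 against 64.4 ± 42.2 CPM (-2.59 ± 0.46, adjusted p = 0.0363) and S100a6 at 7.44 ± 2.07 against 46.3 ± 36.5 (-2.40 ± 0.45, adjusted p = 0.0457). S100a1 had a read in 90.4% of cycling and 97.9% of non-cycling cells and S100a13 in 51.9% and 76.6%. For S100a6 the share was not lower in cycling cells (58.3% and 53.2%). These 3 were called of 5 S100 genes tested (60%, beside 0.491% called lower of all genes outside the cell cycle lists). The S100 list was formed after its values had been seen. In GENCODE M21 (GRCm38) S100a1 lies on chromosome 3 at chr3:90511034-90514392, next to S100a13 at chr3:90514435-90524581, and S100a6 lies at chr3:90612882-90624181. None of the 3 was called without culture 2, 3, 4 or 5. S100a13 and S100a6 also lost their calls with the 6 other mitotic genes as selection genes.

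Krt19, a simple epithelial keratin, had 8.24, 1.52, 6.97, 8.80 and 8.88 CPM in cycling cells and 17.8, 12.9, 106.1, 102.3 and 66.6 in non-cycling cells. The sides did not overlap (-2.95 ± 0.48, adjusted p = 0.0294), and Krt19 had a read in 31.6% of cycling and 46.8% of non-cycling cells. The call was lost without culture 2, 3, 4 or 5, and with the 6 other mitotic genes as selection genes. Krt19 was the only call among 18 epithelial adhesion and keratin genes (5.56%), beside 0.491% called lower of all genes outside the cell cycle lists. The list's median was -0.69, beside 0.13 over those outside genes. Of the 18, 14 had a difference below 0 and 4 above, among them Cdh2 (0.55 ± 0.19) and Cdh1 (0.16 ± 0.16). Krt8 had -0.87 ± 0.20 (adjusted p = 0.0820) and Krt18 -0.80 ± 0.18 (adjusted p = 0.0843). Epcam had 845 ± 80.9 against 1049 ± 135.6 CPM (-0.31 ± 0.09, adjusted p = 0.158).

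The remaining named lower genes act outside the cell or in vitamin and lipid handling. Pla2g7, a secreted phospholipase, had 143.98 ± 53.3 against 554.7 ± 202.6 CPM (-1.95 ± 0.35, adjusted p = 0.0358). Tcn2, the carrier of vitamin B12, had 90.2 ± 35.8 against 264.6 ± 64.7 (-1.60 ± 0.26, adjusted p = 0.0309). Cpq, a secreted peptidase, differed by -1.72 ± 0.33, and C1qtnf12, a secreted C1q-related protein, by -1.65 ± 0.30. Clu, which encodes the secreted chaperone clusterin, had 11488, 9275, 4657, 2296 and 6664 CPM in cycling cells and 18874, 15447, 8327, 4477 and 13583 in non-cycling cells. The 2 sides overlapped because the cultures differed more than the sides, yet each culture was lower in cycling cells by a similar amount (-0.86 ± 0.07, adjusted p = 0.00306). Fstl1 (-0.87 ± 0.09, adjusted p = 0.00886) and Sparcl1 (-0.88 ± 0.08, adjusted p = 0.00538), which encode secreted glycoproteins, showed the same arrangement. Pla2g7, Tcn2, Cpq and C1qtnf12 were called neither without culture 4 nor without culture 5.

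The genes of the GER and tectorial membrane were lower in part. Of 20 tested genes of the GER and tectorial membrane list, 3 (15%) were called lower, beside 0.491% of all genes outside the cell cycle lists, and 0 higher, and 16 had a difference below 0 (median -0.62). Tecta encodes alpha-tectorin, the main non-collagen protein of the tectorial membrane. It had 1348, 1009.7, 1069, 1269.8 and 1745 CPM in cycling cells and 2052, 1673, 1663, 2329.9 and 2479.6 in non-cycling cells. The ranges overlapped only through the cycling cells of culture 5 (-0.67 ± 0.08, adjusted p = 0.0128), and the call was lost without culture 2 or without culture 4. Dcn, which encodes the proteoglycan decorin, had 373.7, 399.7, 166.3, 126.1 and 686.1 CPM against 637.1, 1161, 516.6, 469.1 and 1253 (-1.34 ± 0.18, adjusted p = 0.0180), and its call was lost without culture 2, 3, 4 or 5. Dkk3, described above, was the third. Among members that did not pass, Otoa had -1.70 ± 0.48 (adjusted p = 0.151), Col11a1 -0.72 ± 0.17 (adjusted p = 0.0952) and Tectb -1.84 ± 0.77 (adjusted p = 0.328). The other 4 of the 20 were above 0, among them Epyc (1.24 ± 0.92, adjusted p = 0.624) and Otogl (0.33 ± 0.58, adjusted p = 0.867).

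Sparc and Dcn are also made by mesenchyme, and a list of 11 mesenchyme markers summed to 369.8 to 1218 CPM of the library total in cycling cells and 493.4 to 2249 in non-cycling cells, lower in cycling cells in 5 of 5 cultures. Nearly all of this was Lum, which encodes lumican (-0.60 ± 0.12, adjusted p = 0.0570) and had a read in 96.8% of the cells of either side. Without Lum the list summed to 4.32 to 26.9 CPM in cycling and 0 to 19.7 in non-cycling cells, Col3a1, Twist2 and Pou3f4 had 10 reads or fewer each, and 0 of its 3 tested genes were called. In a fit over Day 7 and Day 3 together, Lum was lower by enough to be called on each day (-0.61 ± 0.12 on Day 7 and -1.12 ± 0.15 on Day 3).

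Lysosomal genes were put into a list after their values had been seen, so their counts are descriptions. Of 59 tested, 11 (18.6%) were called lower, beside 0.491% of all genes outside the cell cycle lists, and 0 higher, 52 had a difference below 0, and the median was -0.59. The promoter of Ctsd, on the minus strand at chr7:142387778-142388077 (GRCm38.p6), is shown for its 2 copies of CACGTG, in capitals, the core letters of the E-box bound by TFEB and related factors.
Ctsd: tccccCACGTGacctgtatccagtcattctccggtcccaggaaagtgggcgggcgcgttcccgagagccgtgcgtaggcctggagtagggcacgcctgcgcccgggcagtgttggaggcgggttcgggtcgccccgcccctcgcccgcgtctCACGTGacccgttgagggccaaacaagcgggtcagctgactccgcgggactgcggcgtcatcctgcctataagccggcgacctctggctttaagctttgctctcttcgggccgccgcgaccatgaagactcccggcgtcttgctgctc
Of 48 list promoters found, 16 (33.3%) hold CACGTG, against 12.1% of all.

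Ctsd, the aspartic protease cathepsin D, had 543.4, 562.98, 422.9, 358.3 and 396.8 CPM in cycling cells and 623.2, 1089, 1103, 695.3 and 847 in non-cycling cells. The sides did not overlap, and culture 1 differed least (-0.92 ± 0.16, adjusted p = 0.0372). Ctsb, a cysteine protease, had 971, 824, 826, 792 and 967 CPM against 1434, 1572, 2008, 1372 and 1422 (-0.82 ± 0.12, adjusted p = 0.0222). Glmp, a lysosomal membrane glycoprotein, had 193.3, 158.8, 187.4, 173.3 and 234.9 CPM against 303.3, 333.2, 435.4, 331.8 and 440.7 (-0.96 ± 0.12, adjusted p = 0.0133). For Ctsb and Glmp too, every cycling sum lay below every non-cycling sum. The glycogen-degrading enzyme gene Gaa differed by -0.79 ± 0.12, and Psap, the precursor of the saposins, by -0.76 ± 0.10. The peptidase gene Tpp1 differed by -1.05 ± 0.17, the sialidase gene Neu1 by -0.92 ± 0.18 and Cd63, a membrane protein of late endosomes, by -0.61 ± 0.10. The other 3 calls were Ctsz, Dpp7 and Pld3. None of the 11 genes was called without culture 4 or without culture 5.

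Genes that hold or accompany exit from the cycle showed few calls. Of 8 tested CDK inhibitor and quiescence genes, 1 (12.5%) was called lower, beside 0.491% of all genes outside the cell cycle lists. Of the 8, 6 had a difference below 0 and 2 above (median -0.53). The call was Btg1, an antiproliferative gene, with 345.2 ± 83.9 against 504.3 ± 119.8 CPM (-0.54 ± 0.10, adjusted p = 0.0363). It was not called whichever of the 5 cultures was left out. The inhibitor genes Cdkn1b (-0.79 ± 0.29, adjusted p = 0.264) and Cdkn1c (1.01 ± 0.43, adjusted p = 0.336) were not called. Ccnd1, the D-type cyclin that starts the cycle, was at 1096 ± 317.1 CPM in cycling and 932 ± 370.4 in non-cycling cells (0.28 ± 0.12, adjusted p = 0.354), and 0 of 11 genes of the D-type cyclin and Myc list and 0 of 19 p53 targets were called. Mxd4, a MYC antagonist of the same list, had 8.63, 2.98, 4.61, 12.5 and 8.74 CPM against 72.3, 82.2, 54.4, 18.1 and 65.6. Its sides did not overlap, but the difference missed the threshold (-3.02 ± 0.63, adjusted p = 0.0628).

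Immediate early genes respond within minutes to growth factors and to tissue handling. Of 19 tested, 18 had a difference below 0 (median -0.64), beside 5269 of the 12418 genes outside the cell cycle lists. Only Nr4a1 (5.26%), an orphan nuclear receptor gene, was called lower, beside 0.491% of all genes outside the cell cycle lists. It had 172.4, 358.7, 69.2, 300.6 and 264.6 CPM in cycling cells and 467.2, 885, 285.4, 411.2 and 483.6 in non-cycling cells (-1.22 ± 0.22, adjusted p = 0.0375). Its ranges overlapped, and culture 4 had the smallest difference. Fos had 394.4 to 744.1 CPM in cycling and 239.3 to 1081 in non-cycling cells (-0.32 ± 0.22, adjusted p = 0.596) and Btg2 had -1.48 ± 0.49 (adjusted p = 0.210). Of 13 ERK feedback genes only Dusp5 (7.69%), a phosphatase gene of that pathway, was called, with -1.06 ± 0.19 (adjusted p = 0.0357). Most of that list lay the other way: 10 of the 13 had a difference above 0 (median 0.44), none of them called. In glycolysis and hypoxia 2 of 20 genes (10%) were called lower, beside 0.491% of all genes outside the cell cycle lists. They were the glycolytic enzyme gene Aldoa (-0.84 ± 0.10, adjusted p = 0.0128) and the mitophagy gene Bnip3 (-0.91 ± 0.17, adjusted p = 0.0393), in a list with a median of 0.08. Nr4a1, Dusp5 and Bnip3 lost their calls whichever of the 5 cultures was left out, and Aldoa lost its call without culture 2 or without culture 5.

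No gene of the Notch, Wnt, YAP, BMP and otic progenitor lists was called. The counts were 0 of 16 Notch pathway genes, 0 of 13 Wnt targets, 0 of 10 YAP targets, 0 of 11 Id and BMP genes and 0 of 14 otic progenitor genes. Of 17 tested supporting cell genes, 1 (5.88%) was called lower, S100a1, described above. Over all genes outside the cell cycle lists 0.491% were called lower. Sox2, the transcription factor of the sensory domain whose reporter was used in the sort, was at 7.85 ± 3.76 CPM in cycling and 12.9 ± 7.03 in non-cycling cells (-0.74 ± 0.70, adjusted p = 0.718). Lgr5, a Wnt target gene of progenitor-like supporting cells, was at 22.8 ± 9.98 against 35.6 ± 10.0 (-0.71 ± 0.41, adjusted p = 0.504). The Notch target Hes1 (-0.36 ± 0.25, adjusted p = 0.591) was not called, nor was the Wnt target Axin2 (0.65 ± 0.83, adjusted p = 0.809), whose difference was -0.03 without culture 3. The growth regulator gene Hmga2 (1.87 ± 1.84, adjusted p = 0.730) and the transcription factor gene Sp8 (1.13 ± 0.46, adjusted p = 0.311) were not called either. By edgeR's quasi-likelihood test 1879 of all genes had an unadjusted p under 0.05 on Day 7, against the 1.89% called, so a missed call here does not show that levels were equal.

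**Figure D4:**
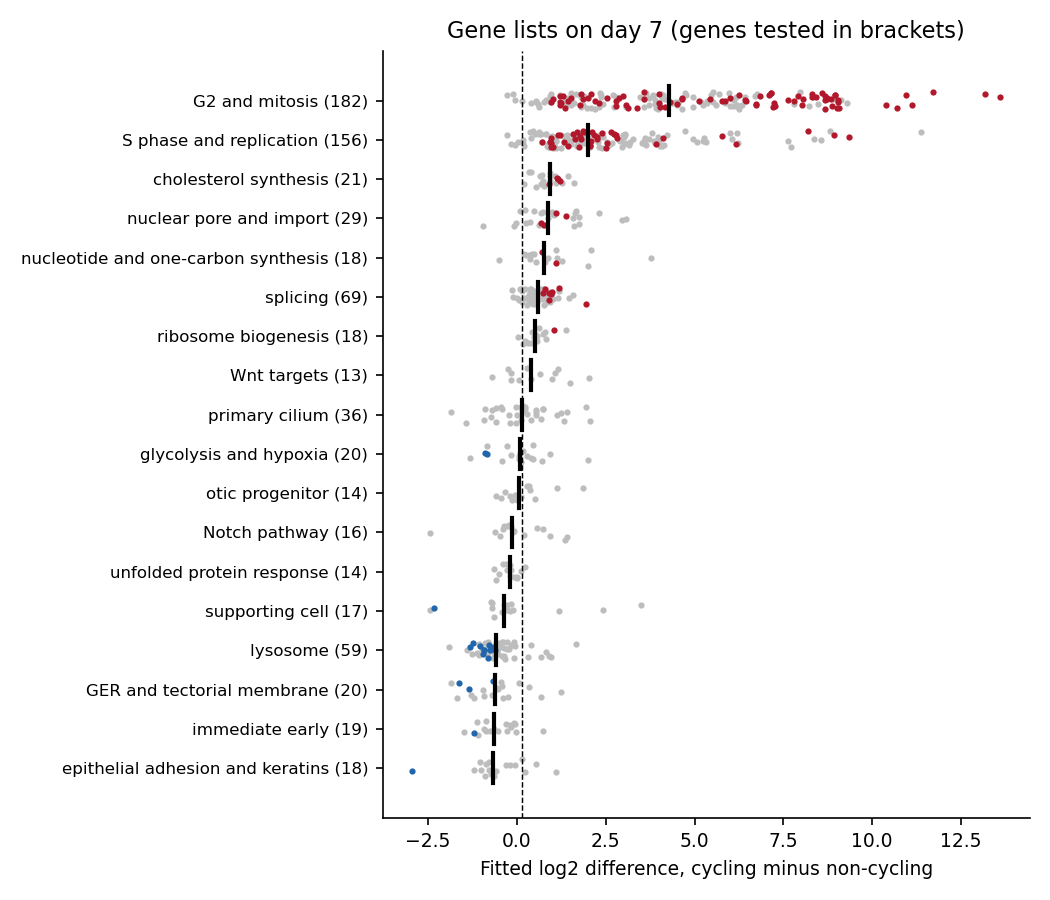
Fitted log2 difference (cycling minus non-cycling) of each tested gene of 18 lists on Day 7, 1 point a gene, with called genes in red (higher) or blue (lower), others in grey, the list's median as a black bar and the median of all genes as a dashed line. The medians run from 4.29 for G2 and mitosis through 0.92 for cholesterol synthesis to -0.69 for epithelial adhesion and keratins.

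Day 3 cells chosen in the same way were set beside these differences. Of the Day 3 cells, 89.4% were retained, of which 66.7% were cycling and 57 (25%) were non-cycling, in 3 cultures. In a fit over both days, 2.65% of 15531 genes were called for Day 7 and 1.51% for Day 3. Of the 53 genes called higher outside the lists on Day 7, 51 also had a difference above 0 on Day 3, and of the 61 called lower, 60 were below 0. Over all genes outside the lists the direction was shared by 68% of those above 0 on Day 7 and 61.3% of those below. The 53 higher genes had a median difference of 1.08 on Day 7 and 0.91 on Day 3, and the 61 lower genes -0.97 and -0.96.

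The difference between the days was tested directly, and edgeR's quasi-likelihood test called 0 of 15531 genes (0%), with 520 at an unadjusted p under 0.05 and 65 called by DESeq2. Lysosomal genes had a median of -0.60 on Day 7 and -0.84 on Day 3, with 14 called lower on each day. Cholesterol synthesis had a median of 0.91 on Day 7 and 0.29 on Day 3, with 7 and 0 genes called, and Sqle had the largest day difference of the 4 called genes (0.83 ± 0.27, unadjusted p = 0.0106, adjusted p = 1.0). Tuba1a had 0.83 ± 0.16 (unadjusted p = 0.000415, adjusted p = 0.537) and Fstl1, lower on both days, 0.79 ± 0.15 (unadjusted p = 0.000279, adjusted p = 0.433). In this fit Tuba1a was at 0.77 ± 0.10 on Day 7 and at -0.06 ± 0.13 on Day 3. No gene is therefore shown to differ between the days by this test.

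**Figure D5:**
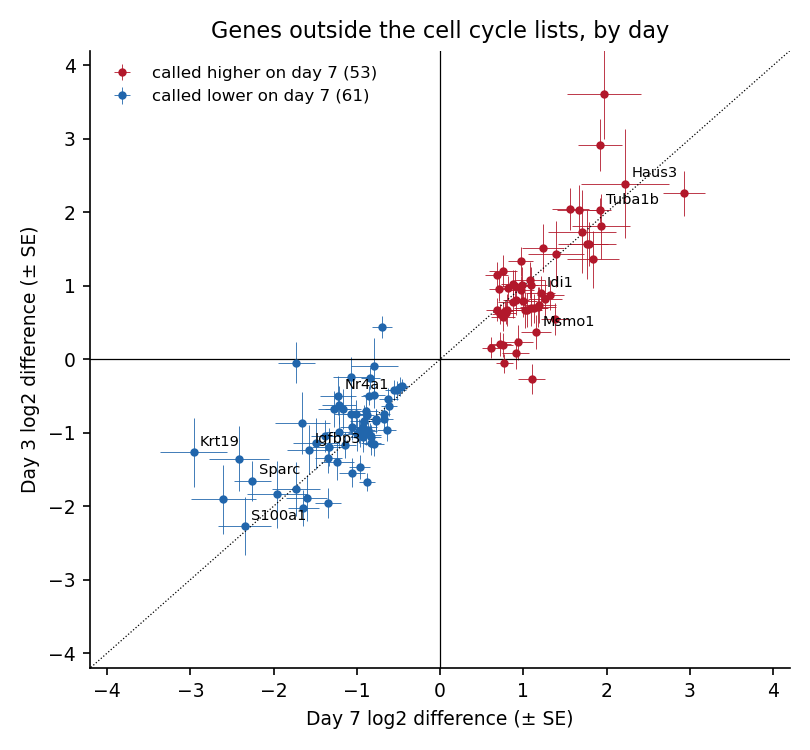
Log2 difference between cycling and non-cycling cells on Day 3 against Day 7 for the 53 higher and 61 lower genes called outside the cell cycle lists on Day 7, with standard errors as bars and a dotted line of equality. All but 3 of the genes lie in the quadrants of shared direction, and Lrr1, at 9.04 on Day 7 and 9.06 on Day 3, lies beyond the axes.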

How the data were processed

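Per the submitters' processing notes, the authors used STAR 2.5.3a and RSEM 1.3.0 with mm10 (GRCm38), and they deposited expected counts (estimated reads per gene and cell, not normalised) in 2 files. Of the values above 0, 11.0% were not whole, and all were rounded. The annotation release is not given in the sources used here. In the deposited tables, 192 columns matched no sample label and were not used. Rounded counts were summed per side and culture and tested with edgeR 4.0.16 (TMM scaling, filterByExpr, quasi-likelihood F-test, culture as a block) in R 4.3.3. The F-test was checked on simulated data. Alternatives used DESeq2 1.42.0 and limma 3.58.1, with a pseudocount of 1 for limma. PCR duplicates cannot be removed without molecular identifiers, so counts overstate the number of molecules.

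Of 768 cells in the series, 321 were from Day 7, of which 301 were retained, 187 as cycling and 94 as non-cycling. From Day 3 there were 255, of which 228 were retained (152 and 57). On Day 7, 242 genes were called, 181 higher and 61 lower, with 114 outside the cell cycle lists (182 tested genes of G2 and mitosis, 156 of S phase and replication). Dixon's test was run on 195 groups.

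Both sides of a culture share its source, which makes them a pair. Deviations from the side means, correlated between the 2 sides of the same culture, gave r of 0.119 to 0.226, and the highest r with another culture was 0.0255. The 6 selection genes, the gene lists and the named genes were chosen with earlier results of these data known. Named genes were the selection genes, 12 preset genes, up to 10 called genes per direction outside the cell cycle lists (by difference, the same way in 5 of 5 cultures, at least 20 CPM and a read in at least 20% of cells on the higher side, no predicted genes), and leading members of each list. Other list members were named after their values were seen. A planned measure relative to ERCC spike-ins was dropped, because these had 5 reads in 1 cell. Coordinates are from GENCODE M21 (GRCm38), in which 93.2% of 52636 identifiers had the same version, and promoters are from RefSeq (GRCm38.p6).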

Additional observations from a re-analysis of the deposited data

Results flagged for a closer look

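The 5 culture values of each named gene and measure were tested per side, and in 20 groups (10.3%) the highest or lowest culture lay far from the other 4 by Dixon's test. Chance flags about 1 in 20 groups, which would be 9.75 here, and the groups share the same 5 cultures.

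Culture 2 stood high for sterol synthesis genes: Msmo1 reached 721.9 CPM in its cycling and 405.1 in its non-cycling cells, and Sqle 478.9 in its cycling cells. It was also high for Cdca4 in cycling cells (141.9 CPM) and for Eftud2 in non-cycling cells (214.4), and low for Krt19 in cycling cells (1.52). Its non-cycling cells were flagged high for Mki67 too (0.177, with 0 in the other cultures). Mki67 is a selection gene that had a read in 1 of 94 non-cycling cells, so this flag rests on 1 cell.

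Culture 3, with 8 non-cycling cells, stood high among non-cycling sums for the replication histone Hist2h3c2 (5.46 CPM), S100a6 (109.2) and Hmga2 (16.2), and low for Dusp5 (33.6). Its cycling cells were high for Hist2h3c2 (74.8) and low for Hes1 (29.9).

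Cycling cells of culture 1 were low in the share of reads on cell cycle list genes (2.68%), in Stmn1, which encodes a microtubule destabiliser (561.6 CPM), and in Lsm3 (48.2). Cycling cells of culture 4 were high for Dnmt1, the maintenance DNA methyltransferase gene (195.4 CPM), and Cdkn1c (64.9). Those of culture 5 were high for Paics (565.1) and Tpp1 (226.4).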

How the results depend on the processing

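The percent of tested genes called moved with the settings, given here over all genes and, after it, over those outside the cell cycle lists. The full comparison called 1.89% and 0.918%. DESeq2 called 10.3% and 8.21%, and limma on mean CPM per cell 3.68% and 1.92%, with 85.7% of its calls higher against 74.8% in the full comparison. A minimum of 5 reads per selection gene gave 3.22% and 1.96%, thinning to 200000 reads 3.62% and 2.02%, and disjoint markers 2.57% and 1.48%. Cells with 5 or 6 selection genes against 0 gave 1.2% and 0.385%. Cultures with 10 or more cells on each side, chosen after seeing the data, gave 0.2% and 0.0316%. Leaving out each culture in turn gave 0.342% to 1.03% and 0.082% to 0.456%, so the counts rest on all 5 cultures. The cause of these shifts was not tested, except that leave-outs hold fewer samples. With no filter on low counts more genes were tested (22475), and 1.15% and 0.498% of them were called. Under the other settings the number of calls stayed within 1.5 times.

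Without the replicate block, 1.92% and 0.942% of genes were called, and 71.5% and 55.3% of the calls of the full comparison were among them. In the comparison of days, 0 genes were called with the pairing, 1 with no replicate block, 65 by DESeq2, and 0 to 1 when each culture was left out (1 without culture 1 of Day 3).

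The cycling share of culture 1 was 71.8% as chosen, 53.8% after thinning, 46.2% with 5 reads and 51.3% with disjoint markers. Over 1728 values of 91 genes under the alternatives, 70.9% kept direction and side of the threshold, 27.5% lost the call, 25 values gained it and 2 reversed. Both were Axin2, at -0.0305 with disjoint markers and -0.0268 without culture 3, cause not tested, and its values with 1 culture left out ranged up to 1.155. Depth limits the non-cycling sums of cultures 1 and 3, which hold 8 cells each.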

Other observations

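Several gene groups that could accompany division held no called gene on Day 7 by edgeR's quasi-likelihood test. Of 36 genes of the primary cilium, which is taken down before mitosis, 22 had a log2 difference above 0 and 14 below (median 0.14), and 0 were called. Of 14 genes of the unfolded protein response, 11 were below 0 (median -0.20) and 0 were called. The 19 p53 targets had a median of -0.20, with Plk2 at -0.92 ± 0.27 (adjusted p = 0.169) and Sesn2 at -1.44 ± 0.54 (adjusted p = 0.271). The 13 interferon response genes (median -0.23) and the 9 growth factor receptor genes (median -0.01) were also not called. Over all genes outside the cell cycle lists the median was 0.13, and 0.918% of 12418 were called.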
